A study of Homo sapiens with 2 samples.

Results

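The ATP-binding cassette (ABC) genes were examined in RNA-seq data of PLC-8024, a human HCC cell line. Members were taken by symbol, as every gene named ABC followed by a subfamily letter from A to G and a number. The rule found 46 of the 58174 genes listed, and 30 of the 46 reached 1 TPM in one library or both. Family members that carry other symbols are not counted here. The series held 2 libraries, 1 of PLC-8024-CTR cells with the control vector (the control library) and 1 of PLC-8024-GDF1 cells (the GDF1 library) with lentiviral overexpression of GDF1, a secreted ligand of the TGF-β superfamily. Stably transduced cells had been selected with puromycin, and whether they were 1 clone or a pool is not given in the sources used here. Each gene has 1 TPM value per library, an abundance scaled for transcript length and library total, so levels can be compared between genes. Since each condition was sequenced once, differences have no replicate check, no p-value is given, and each of them describes these 2 libraries. TPM keeps no depth, so no counting error can be given either. Where a pair of TPM values follows a gene, the first is of the control library and the second of the GDF1 library. As a check of the labels, GDF1 itself was listed at 2.1 and 4.64 TPM, and CERS1, with which it shares a transcript, at 13.3 and 9612 TPM.

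ABC proteins bind and hydrolyse ATP in a conserved nucleotide-binding cassette, and most use this energy to move lipids, bile salts, drugs, peptides or metabolites across a membrane. In hepatocytes they pump bile salts, phospholipid, cholesterol and conjugated compounds into the bile canaliculus or back into the blood. Several of them, the multidrug efflux pumps, also remove anticancer drugs from tumour cells. The proteins of subfamilies E and F carry the cassettes without a membrane domain and act on ribosomes instead.

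The shared cassette can be read from the coding sequence of the members. In the translated coding sequence of the MANE Select transcript of each gene, the Walker A pattern (glycine, any pair of residues, glycine, any residue, glycine, lysine, then serine or threonine) was searched, which marks the loop that holds the phosphates of ATP. Of the 30 genes with at least 1 TPM, 20 had 2 such loops and 10 had 1. The coding sequences below, from GENCODE v44 on GRCh37 (hg19, minus or plus strand as transcribed), show the loop in the members with the largest change and in the member highest in the control library, and the capitals mark the 24 bases that encode it. ABCA3 has its loops in exons 14 (chr16:2349414-2349461, minus strand) and 28 (chr16:2331106-2331153) of 33. ABCB1 has them in exons 12 (chr7:87179523-87179570, minus strand) and 25 (chr7:87144586-87144633) of 28. The single loop of ABCG2 lies in exon 3 of 16, and the bases shown after it run on into exon 4 (chr4:89053060-89053765, minus strand, an intron included). The first loop of ABCF3 lies in exon 7 of 21 (chr3:183905975-183906022, plus strand).
ABCA3, loop 1: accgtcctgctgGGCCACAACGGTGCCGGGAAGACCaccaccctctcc
ABCA3, loop 2: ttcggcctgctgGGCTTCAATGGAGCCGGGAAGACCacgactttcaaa
ABCB1, loop 1: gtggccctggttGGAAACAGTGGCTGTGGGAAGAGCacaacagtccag
ABCB1, loop 2: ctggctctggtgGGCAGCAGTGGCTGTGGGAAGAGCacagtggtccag
ABCG2, loop 1: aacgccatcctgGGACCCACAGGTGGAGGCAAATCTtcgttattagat
ABCF3, loop 1: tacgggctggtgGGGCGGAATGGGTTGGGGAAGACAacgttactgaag

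Most ABC genes differed by less than 2-fold between the libraries, and 3 passed it. ABCA3, a phospholipid transporter of lamellar bodies best known from lung surfactant, was higher in PLC-8024-GDF1 cells. ABCB1 and ABCG2, the multidrug pumps P-glycoprotein and breast cancer resistance protein, were lower. The log2 change is log2((TPM + 1)/(TPM + 1)) with the GDF1 library above the line, which shrinks the ratio where TPM are low, and a change past 2-fold is one over 1 or under -1 on this scale. The 1 gene past 2-fold upwards was 3.33% of the 30, against 4.82% of all 14929 genes that reached 1 TPM in one library or both (the genes tested). The 2 past 2-fold downwards were 6.67%, against 9.61% of all genes tested. Both shares were near those of all genes, and they rest on 1 and 2 genes.

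The ABC genes were lower on median by about as much as genes in general. Their median log2 change was -0.28, and the median over the 14929 genes was -0.20. Of the 30, 22 were lower and 8 higher in PLC-8024-GDF1 cells, which is 73.3% lower against 63.3% of all genes. Of the 30, 3 reached 1 TPM only in the control library and 2 only in the GDF1 library. The directions of these genes were fixed by the 1 TPM minimum. Multiplying the TPM of PLC-8024-GDF1 by 1.15, so that the median plain TPM ratio of the 9632 genes with at least 5 TPM became 1, gave 17 lower and 13 higher ABC genes. The directions of ABCA4, ABCB6, ABCC5 and ABCC6 were among those that turned under this rescaling, so none is given for these genes below. The same rescaling changed the split of all genes past 2-fold from 720 higher and 1434 lower to 1040 higher and 1022 lower. Under it ABCA3 stayed past 2-fold upwards and ABCB1 downwards, while the change of ABCG2 was -0.87.

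**Figure D1:**
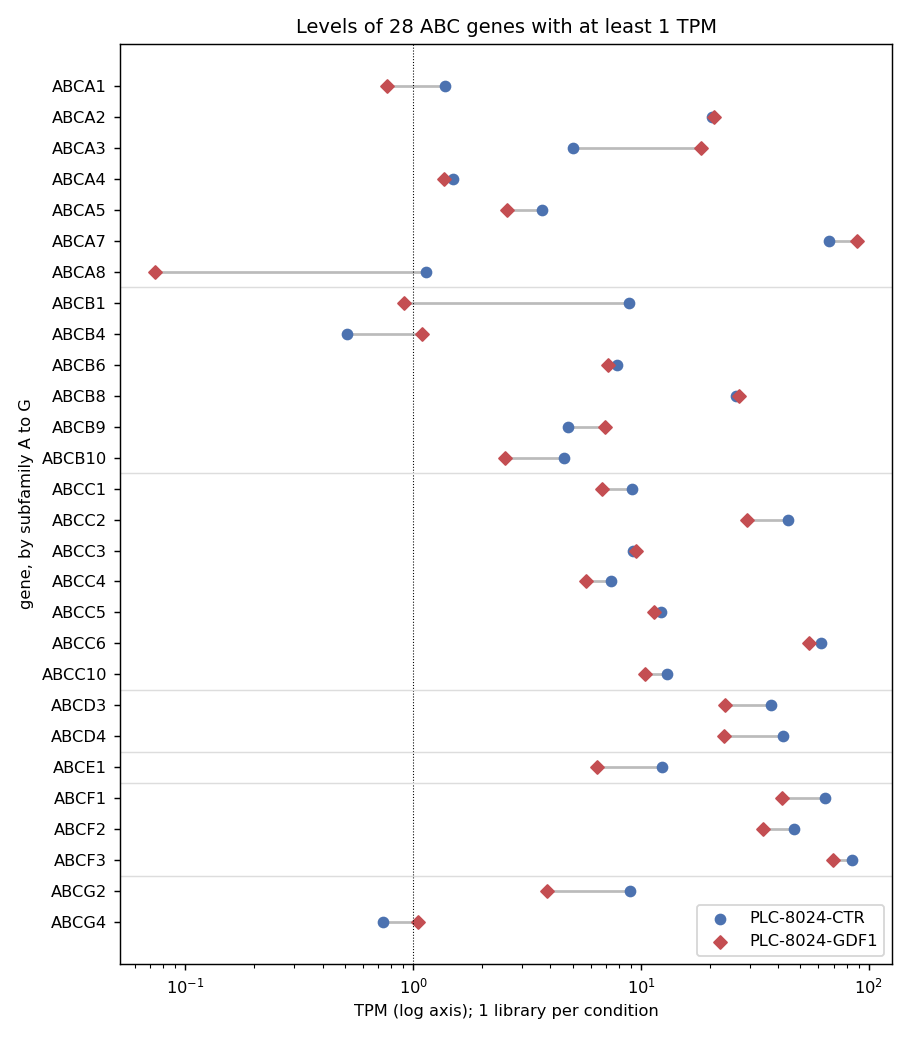
TPM of 28 ABC genes that reached 1 TPM in one library or both, on a log axis, with circles for the PLC-8024-CTR library and diamonds for the PLC-8024-GDF1 library and grey lines joining the 2 values of a gene. The widest gaps are those of ABCA8 (1.14 and 0.0735 TPM), ABCB1 (8.86 and 0.908 TPM) and ABCA3 (5.0 and 18.4 TPM), and the dotted line marks 1 TPM.

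ABCA3 (chr16:2325882-2390747 on GRCh37, minus strand) was listed at 5.0 TPM in the control and 18.4 TPM in the GDF1 library. Its log2 change was 1.69 and its plain TPM ratio 3.68, and it was the only ABC gene past 2-fold upwards. Its control value ranked 22 of the 46 genes. No gene with at least 1 TPM overlapped it, and none of the 100-base windows of its longest transcript occurred in a transcript of another gene.

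ABCB1 (chr7:87132333-87342639, minus strand) was listed at 8.86 TPM in the control and 0.908 TPM in the GDF1 library. Its log2 change was -2.37, and by the plain ratio it was 9.76-fold lower, with the value in PLC-8024-GDF1 below 1 TPM. ABCB1 reached 1 TPM only in the control library, so its direction, though not the size of its change, was fixed by that minimum. RUNDC3B, which overlaps ABCB1 on the opposite strand, was lower as well, at 1.97 and 0.212 TPM. Whether reads were counted by strand is not given in the sources used here, so reads from the overlap of the pair cannot be told apart. ABCB4, the phosphatidylcholine floppase of the canalicular membrane and the gene most like ABCB1 in the family, lies next to it on chromosome 7 (chr7:87031012-87109751, minus strand). It was listed at 0.512 and 1.10 TPM, a log2 change of 0.47, and 0.45% of the windows of ABCB1 were shared with it. The neighbouring pair thus differed in direction, and the level of ABCB4 was near the minimum of 1 TPM. ABCB4 reached this minimum only in the GDF1 library, so its direction was fixed by it. ABCB1 was singled out for its change, so the contrast of the pair carries no weight.

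ABCG2 (chr4:89011302-89152780, minus strand) was listed at 8.95 TPM in the control and 3.86 TPM in the GDF1 library. Its log2 change was -1.04, just past 2-fold, and by the plain ratio it was 2.32-fold lower. ABCA8, a lipid transporter, was the nearest gene inside the limit, with a log2 change of -0.996 from 1.14 to 0.0735 TPM. By the plain ratio ABCA8 was 15.5-fold lower, which rests on a value in PLC-8024-GDF1 far below 1 TPM. ABCA8 reached 1 TPM only in the control library, so its direction was fixed by that minimum.

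The 250 bases before annotated starts, taken from RefSeq promoter sequences of GRCh38.p14, were compared by their letters. In the 3 genes past 2-fold the stretches before the start of the MANE Select transcript overlap exons of other transcripts and are not printed. GC boxes, spelled GGGCGG, were counted on either strand. CCAAT boxes were counted by the letters of their name, and TATA boxes as TATAAA, likewise on either strand. The GC content of these stretches was 79.2% in ABCA3, 55.6% in ABCB1 and 73.6% in ABCG2. That of ABCA3 held 1 GC box, that of ABCB1 held 2 CCAAT boxes, 1 on each strand, and that of ABCG2 held none of the 3 motifs. RefSeq promoter sequences were at hand for 23 of the 30 genes, 34 sequences in all because some genes have several starts. A GC box stood in 22 of the 34 (64.7%), against 42.6% of all 35116 promoter sequences of this length. A CCAAT box stood in 6 (17.6%, against 32%) and a TATA box in 4 (11.8%, against 10.7%). The 34 belong to genes with at least 1 TPM, and some overlap each other, while all promoter sequences were taken without a TPM minimum. Median GC content was 66.6% in the 34 and 58% in all, so these shares are not a like comparison. The palindrome GTCTAGAC, a known binding sequence of SMAD proteins, stood in 0 of the 34 and in 0.18% of all. A match describes letters in this window and not a bound site.

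Of the canalicular bile transporters, 4 of 7 had at least 1 TPM. Past 2-fold downwards were 2 of these 4, ABCB1 and ABCG2, against 9.61% of all genes tested. ABCB1 reached 1 TPM only in the control library. With TPM rescaled (-0.87) or the GC trend subtracted (-0.61), ABCG2 was within 2-fold. ABCC2, which exports bilirubin glucuronides and other conjugates into bile, was the member with the most TPM, at 44.2 TPM in the control and 29.2 TPM in the GDF1 library. Its log2 change was -0.58, within 2-fold. ABCB11, the bile salt export pump, was listed at 0.0001 TPM in both libraries, the value the files use in place of 0. ABCG5 and ABCG8, which together export sterols into bile, were listed at 0.0701 and 0.167 TPM and at 0.0001 TPM in both. The bile salt pump was thus at the floor in both libraries, while the conjugate pump stood among the 11 ABC genes with at least 20 TPM. Of the 8 hepatocyte markers, 4 (ALB, APOA1, HNF4A and TTR) were also past 2-fold downwards, HNF4A not with TPM rescaled (-0.84). APOB, FGB and SERPINA1 were lower within 2-fold, and TF was slightly higher (0.12). The marker list summed to 9376 TPM in the control and 6109 TPM in the GDF1 library. The part of this lower marker level in the canalicular values was not tested. The 7 genes together had 62.6 TPM in the control and 35.2 TPM in the GDF1 library. In bulk RNA, fewer cells that express a gene and less RNA per cell cannot be told apart.

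Over all genes tested, 4.82% passed 2-fold upwards and 9.61% downwards. All 5 sinusoidal and basolateral efflux pumps had at least 1 TPM and none passed 2-fold. ABCC6, a liver protein needed for cellular ATP release and the prevention of soft tissue calcification, was the highest of them, at 61.7 and 54.6 TPM. Of the windows of its longest transcript, 13.3% also occur in transcripts of other loci, among them its pseudogenes ABCC6P1 (11 and 5.11 TPM) and ABCC6P2 (13 and 6.92 TPM), so its level is uncertain, and the 3 genes added up changed by -0.36. ABCC3, which returns conjugates to the blood, was listed at 9.21 and 9.49 TPM. ABCC1, a pump for glutathione conjugates and drugs, was listed at 9.10 and 6.71 TPM (log2 change -0.39). ABCC4, a carrier of cyclic nucleotides and bile salts, was listed at 7.36 and 5.75 TPM (-0.31), and ABCC5, a related carrier of cyclic nucleotides, at 12.2 and 11.4 TPM. These genes kept a narrow range in both libraries, apart from the higher ABCC6.

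Among the multidrug efflux pumps, a list that overlaps the lists of canalicular and basolateral pumps, 8 of 9 genes had at least 1 TPM. None passed 2-fold upwards, 2 passed it downwards and 6 stayed within it, with a median log2 change of -0.35. Those 2 are again ABCB1 and ABCG2, already counted among the canalicular transporters. With TPM rescaled (-0.87) or the GC trend subtracted (-0.61), ABCG2 was within 2-fold. Over all genes tested 9.61% were past 2-fold downwards and the median was -0.20. ABCC10, which confers resistance to taxanes, was listed at 13 and 10.4 TPM. ABCC11 was under 1 TPM in both libraries. In PLC-8024-CTR the pumps ABCB1 and ABCG2 stood close to ABCC1 and ABCC3, between 8.86 and 9.21 TPM. In PLC-8024-GDF1 both were below these 2, at 0.908 and 3.86 TPM against 6.71 and 9.49 TPM. ABCB1 and ABCG2 were singled out for their changes, so this contrast carries no weight.

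**Figure D2:**
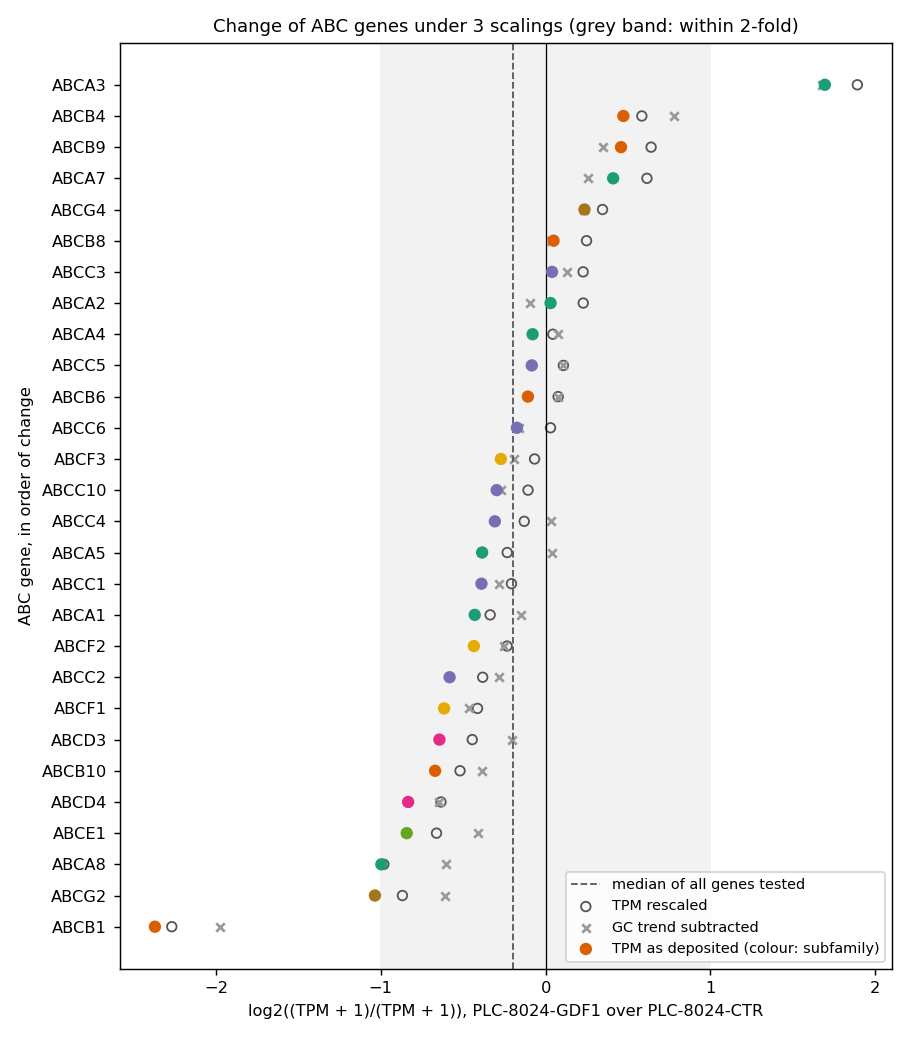
log2 change of 28 ABC genes in order, with filled circles coloured by subfamily for TPM as deposited, open circles for TPM rescaled and crosses for the GC trend subtracted; the grey band spans changes within 2-fold and the dashed line is the median of all genes tested (-0.20). ABCA3 (1.69) and ABCB1 (-2.37) lie outside the band under each scaling, ABCG2 only with TPM as deposited, and ABCA4, ABCB6, ABCC5 and ABCC6 change sign when TPM are rescaled.

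The genes for cholesterol and phospholipid export were led by ABCA7, a phospholipid transporter also known for its role in phagocytosis and Alzheimer's disease risk. It was listed at 66.7 TPM in the control and 88.9 TPM in the GDF1 library, a log2 change of 0.41. ABCA1, which loads cholesterol and phospholipid onto apolipoprotein A-I, was listed at 1.38 and 0.769 TPM, and its partner in sterol efflux ABCG1 was under 1 TPM in both. ABCG4 was listed at 0.738 and 1.05 TPM. Of the 7 listed genes 4 had at least 1 TPM, 3 of them were higher and 1 lower, and none passed 2-fold. Over all genes tested, 4.82% passed it upwards and 9.61% downwards. ABCB4 and ABCG4 reached 1 TPM only in the GDF1 library and ABCA1 only in the control. Their directions were thus fixed by the 1 TPM minimum, and that of ABCA7 alone was free. The 7 genes summed to 69.4 TPM in the control and 92.0 TPM in the GDF1 library, most of it from ABCA7.

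Of the 10 other lipid transporters of subfamily A, 5 had at least 1 TPM. ABCA2, found in lysosomes and endosomes and in myelinating cells, was listed at 20.4 and 20.8 TPM. ABCA5 was listed at 3.67 and 2.58 TPM, and ABCA4, the retinoid flippase of photoreceptors, at 1.49 and 1.36 TPM. ABCA8, ABCA9, ABCA6, ABCA10 and ABCA5 follow each other on the minus strand of chromosome 17, from 66863430 to 67323385 on GRCh37. ABCA5 and ABCA10 overlap at their ends and share 2.69% of the windows of ABCA5. In this cluster ABCA5 and ABCA8 reached 1 TPM in PLC-8024-CTR, ABCA6 and ABCA10 stayed between 0.0845 and 0.482 TPM, and ABCA9 was listed at 0.0001 TPM in both libraries. Subfamily A was the only subfamily whose summed TPM was higher in PLC-8024-GDF1, at 133.5 against 100.1 TPM, with the widest gaps upwards in ABCA7 and ABCA3.

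The transporters of intracellular membranes were grouped by organelle. Of the mitochondrial ones, ABCB8 was listed at 26.1 and 27.0 TPM and ABCB6, a porphyrin transporter, at 7.82 and 7.19 TPM. Of the windows of ABCB6, 33.6% also occur in another annotated gene that is not among the identifiers used here. ABCB10, which supports haem synthesis, was listed at 4.60 and 2.52 TPM (log2 change -0.67). None of the 4 mitochondrial genes on the list passed 2-fold, against 4.82% of all genes tested upwards and 9.61% downwards.

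Of the peroxisomal transporters, ABCD3, which carries branched fatty acids and bile acid precursors, was listed at 37 and 23.3 TPM (-0.64). ABCD2 was listed at 0.0001 TPM in both. Of the lysosomal proteins, ABCD4, needed for the release of cobalamin from lysosomes, was listed at 42.1 and 23.2 TPM (-0.83). ABCB9, a lysosomal peptide transporter, was listed at 4.78 and 6.94 TPM (0.46). ABCB9 overlaps ARL6IP4, OGFOD2 and AC026362.1 on the opposite strand, of which ARL6IP4 was listed at 116.3 and 149.2 TPM. The pair of lysosomal genes differed in direction, and both changes were within 2-fold.

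The soluble ATPases of subfamilies E and F included the ABC gene highest in the control, and all 4 were lower in the GDF1 library, with TPM as deposited, with TPM rescaled and with the GC trend subtracted. ABCF3 was the highest of the 4, at 84.1 TPM in the control and 69.5 TPM in the GDF1 library. Its log2 change was -0.27, and -0.067 with TPM rescaled. ABCF1, which takes part in translation initiation, was listed at 64.2 and 41.6 TPM (-0.62), and ABCF2 at 46.8 and 34.4 TPM (-0.44). ABCE1, which splits ribosomes after termination, was listed at 12.3 and 6.43 TPM and had the largest change of the 4 (-0.84). ABCE1 overlaps ANAPC10 (11.1 and 6.74 TPM) and OTUD4 (2.04 and 1.08 TPM) on the opposite strand, and both were lower too. For ABCF2, 41.1% of windows occur in the readthrough gene ABCF2-H2BK1, which has no entry among the identifiers used here. The 4 genes made up 31.7% of the summed TPM of the ABC genes in PLC-8024-CTR and 27.5% in PLC-8024-GDF1. Their median log2 change was -0.53, all 4 within 2-fold. Over all genes tested the median was -0.20, 63.3% were lower, and 4.82% and 9.61% were past 2-fold upwards and downwards.

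**Figure D3:**
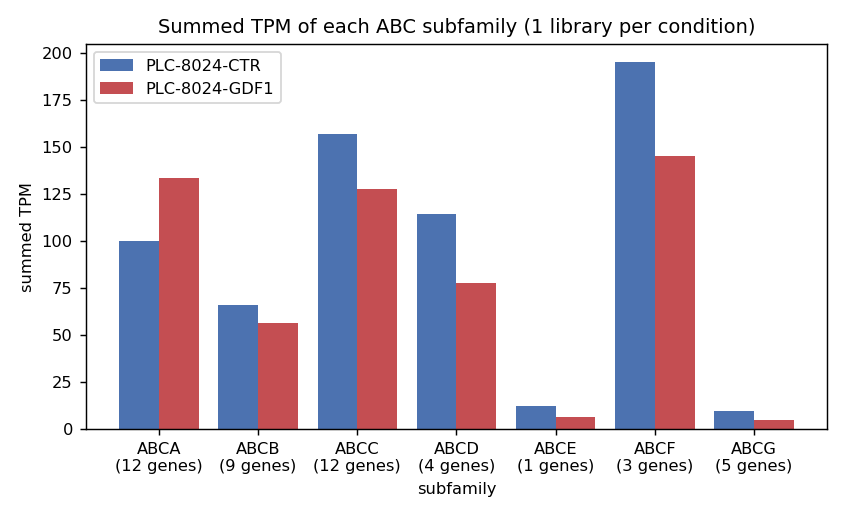
Summed TPM of all genes of each ABC subfamily, with blue bars for the PLC-8024-CTR library and red bars for the PLC-8024-GDF1 library. ABCF is highest in both (195.2 and 145.5 TPM), and ABCA is the only subfamily with a higher sum in PLC-8024-GDF1 (100.1 and 133.5 TPM).

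Added up, the 46 genes had 654.9 TPM in the control and 552.9 TPM in the GDF1 library, which is 0.065% and 0.055% of all TPM. The order of the levels was similar in both libraries, with Spearman's rho of 0.92 across the 30 genes, which share the library and are not independent replicates. Of the 11 genes that reached 20 TPM in one library or both, 10 were, from highest to lowest in the control, ABCF3, ABCA7, ABCF1, ABCC6, ABCF2, ABCC2, ABCD4, ABCD3, ABCB8 and ABCA2. The genes ABCF1, ABCC6 and ABCA7 followed each other within 61.7 to 66.7 TPM, and their order cannot be judged without replicates. By the number of cassettes, the 10 genes with 1 loop had a median log2 change of -0.22 and the 20 with 2 loops one of -0.30.

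The remaining 16 genes stayed under 1 TPM in both libraries, with 0.482 TPM as their highest value. Of these, 7 were at 0.0001 TPM in both, namely ABCA9, ABCA12, ABCB5, ABCB11, ABCC13, ABCD2 and ABCG8. The other 9 were ABCA6, ABCA10, ABCA13, ABCC8, ABCC9, ABCC11, ABCC12, ABCG1 and ABCG5. ABCC8 and ABCC9, which encode the sulphonylurea receptors of ATP-sensitive potassium channels, were listed at 0.402 and 0.00402 TPM in the GDF1 library and at 0.0001 TPM in PLC-8024-CTR. ABCC13 is annotated as a pseudogene.

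The log2 change of the ABC genes went with the GC content of their longest transcript. Spearman's rho was 0.69 across the 30 genes and 0.33 across 11792 protein-coding genes tested, which share both libraries. In the fifth of protein-coding genes with the lowest GC content (29.2 to 41.0%) stood 6 ABC genes with a median log2 change of -0.74, against -0.48 for the 2359 genes there, and ABCB1 (40.8% GC) and ABCG2 (39.0%) were among them. In the fifth with the highest GC content (59.0 to 76.0%) stood 8 ABC genes with a median of 0.14, against 0.11 for all, and ABCA3 (60.4%) was among them. With the trend of all genes on GC content subtracted, ABCA3 changed by 1.68 and ABCB1 by -1.98, and ABCG2 by -0.61. The part of base composition in these differences was not tested further, and with a single library of each kind it and the condition cannot be told apart.

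Genes that work with the ABC proteins were counted on lists of regulators, uptake carriers, apolipoproteins, bile acid enzymes and direct partners. Of their 42 genes found, 32 had at least 1 TPM. Past 2-fold were 1 of these upwards and 8 downwards, against 4.82% and 9.61% of all genes tested. The lists were chosen with earlier results of these data known, so this is not a like comparison. Of the 8, APOA1 and HNF4A are also among the hepatocyte markers counted above. Among the nuclear receptors and related regulators of ABC genes, NR0B2 (SHP), the repressor induced by the bile acid receptor, was higher, at 2.34 and 5.95 TPM (1.06). HNF4A, a master regulator of hepatocyte genes, was lower, at 11.4 and 5.15 TPM (-1.02). Its change was -0.84 with TPM rescaled and -0.91 with the GC trend subtracted, both within 2-fold. The oxysterol receptors NR1H3 and NR1H2, which induce ABCA1 and ABCG1, were listed at 57.2 and 52.6 TPM and at 64.5 and 64.2 TPM, and both turned direction with TPM rescaled. The bile acid receptor NR1H4 was listed at 5.33 and 3.08 TPM (-0.63), and the xenobiotic receptor NR1I2, a known inducer of ABCB1, was under 1 TPM in both libraries.

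The apolipoproteins that accept exported lipid were lower in part. APOA1, the acceptor for ABCA1, changed from 602.9 to 158.0 TPM (-1.93) and APOA2 from 1754 to 732.3 TPM (-1.26), while APOE was listed at 7434 and 6532 TPM and APOC1 at 733.4 and 759.8 TPM. The log2 change of APOE was -0.19 and turned to 0.02 with TPM rescaled. Of the hepatic uptake carriers, SLCO2B1 alone had at least 1 TPM and was lower (15.9 and 5.67 TPM, -1.34), and SLC10A1, the sodium-dependent bile salt carrier, was listed at 0.0001 TPM in both. Of the bile acid enzymes, BAAT, which conjugates bile acids to amino acids, was lower (3.07 and 0.884 TPM, -1.11). BAAT reached 1 TPM only in the control library, so its direction was fixed by that minimum. With the GC trend subtracted its change was -0.72. SLC27A5 was listed at 44.8 and 79.2 TPM (0.81, and 1.01 with TPM rescaled). CYP7A1, which starts the classic pathway of bile acid synthesis, was listed at 0.0001 TPM in both.

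Of the direct partners 15 of 16 genes had at least 1 TPM and 3 were past 2-fold downwards, against 9.61% of all genes tested. FECH, the last enzyme of haem synthesis and a partner of ABCB10, changed from 10.9 to 2.99 TPM (-1.57). PEX19, which inserts the peroxisomal ABC proteins into their membrane, changed from 9.02 to 2.43 TPM (-1.55). LMBRD1, the lysosomal partner of ABCD4, changed from 16.4 to 5.95 TPM (-1.32). SLC9A3R1, a scaffold of canalicular transporters, was listed at 112.3 and 57.1 TPM (-0.96), within 2-fold. With the GC trend subtracted LMBRD1 was within 2-fold (-0.88) and SLC9A3R1 past it (-1.02), while FECH (-1.23) and PEX19 (-1.27) stayed past it. The median over the 32 genes was -0.44, against -0.20 for all genes tested.

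The labels were checked against marker genes. All 8 hepatocyte markers had at least 1 TPM in PLC-8024-CTR, from 7.17 TPM for TTR to 5308 TPM for SERPINA1, and TTR was listed at 0.340 TPM in the GDF1 library. Markers of leucocytes (PTPRC, CD3E), endothelium (VWF) and fibroblasts (COL1A2, DCN) were at or under 0.0244 TPM in both libraries. COL1A1 was listed at 0.205 and 0.843 TPM, while CD68 and PECAM1, which are not limited to those cells, reached 33.1 and 23.2 TPM. Of the 4 cholangiocyte markers, KRT7 (3.0 and 7.98 TPM) and KRT19 (4.46 and 10.9 TPM) were past 2-fold upwards, SOX9 was listed at 4.5 and 5.29 TPM and EPCAM was under 1 TPM. Both markers of foetal liver and HCC were past 2-fold downwards, AFP at 31.4 and 9.75 TPM (-1.59) and GPC3 at 317.8 and 83.3 TPM (-1.92).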

How the data were processed

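Total RNA was enriched for mRNA with poly-T beads and sequenced as paired-end reads. The deposited TPM values were made by the authors from reads trimmed with Trimmomatic 0.36, aligned to hg19 with HISAT2 2.1.0 and quantified with StringTie 1.3.3b, 1 value per gene and library, with 0.0001 in place of 0 (tools and versions per the submitters' processing notes). The study's methods name a RefSeq annotation, while the files carry Ensembl identifiers. Both tables were joined on gene identifiers. Log2 changes used a pseudocount of 1, and only genes that reached 1 TPM in one library or both were counted. Of the members, 2 are counted with their groups but not reported singly here. Members, lists and tests were chosen with earlier results of these data known. Every member with at least 1 TPM was to be described, with both values for those past 2-fold or at 20 TPM or more. Positions, transcripts and GC content came from GENCODE v44 on GRCh37, which held 55726 of the 58174 identifiers and all 46 members. The GC trend was a lowess fit (span 0.3). Alternatives were other pseudocounts, TPM minimums, rescaling and the GC trend subtracted. The calculations, tested on simulated data, used Python 3.11.15, pandas 2.3.3, numpy 2.4.6, scipy 1.17.1, statsmodels 0.14.6 and matplotlib 3.10.9. Coding DNA of the cassettes is printed in place of the protein sequence that had been planned. NHERF1 was found under its older symbol SLC9A3R1.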

Additional observations from a re-analysis of the deposited data

How the results depend on the processing

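No paired analysis was possible because the labels give a single library to either condition, so no library could be left out. Changes were compared in direction and in which side of 2-fold they lay, and a count or share by whether it stayed within 1.5 times its first value. The median log2 change of the 30 ABC genes, -0.28, stayed below 0 and within 2-fold under each of its 7 alternatives. Of the genes past 2-fold, ABCA3 passed upwards under every alternative for the count, and with the plain TPM ratio ABCB4 passed as well, which made 2 genes. Downwards there were 2 at first, 3 with a pseudocount of 0.1 or the plain ratio, where ABCA8 joined, and 1 with TPM rescaled, with the GC trend subtracted (ABCB1 in both) or with at least 1 TPM in both libraries (ABCG2, since ABCB1 drops out there). The share of all genes past 2-fold moved to 7.82% upwards and 15.5% downwards with a pseudocount of 0.1, to 8.23% and 16.3% with the plain ratio, and to 6.06% downwards with the GC trend subtracted, which was chosen for that share after the data were seen.

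Small changes of single genes turned direction where the ratios were centred, which the construction of both alternatives brings about. With TPM rescaled these were ABCA4 (0.044), ABCB6 (0.076), ABCC5 (0.11) and ABCC6 (0.0297), and among the partners APOE (0.0204), NR1H2 (0.20), NR1H3 (0.0843) and EZR (0.0612). With the GC trend subtracted they were ABCA2 (-0.0922), ABCA4 (0.0758), ABCA5 (0.0383), ABCB6 (0.076), ABCC4 (0.035) and ABCC5 (0.11). The group medians that turned were those of subfamily A (0.044 rescaled, 0.41 with at least 5 TPM, 0.0301 with at least 1 TPM in both libraries, 0.0383 with the GC trend subtracted), subfamily B (0.076 rescaled, 0.0762 with the GC trend subtracted), the basolateral pumps (0.0297 and 0.035), the other lipid transporters of subfamily A (0.044, 0.86 with at least 5 TPM, 0.0383), the mitochondrial transporters (0.0549 with the GC trend subtracted) and the lysosomal ones (0.0026 rescaled). Turns of medians under a higher TPM minimum came from members with low TPM dropping out, and not from centring. With TPM rescaled, the partner HNF4A came within 2-fold (-0.84) and SLC27A5 passed it upwards (1.01). With a pseudocount of 0.1, PPARA (-1.01) and NR1I3 (-1.17) passed it downwards, and with the plain ratio likewise (-1.04 and -1.32). TPM keeps no depth, which limits genes near 1 TPM most.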

Other observations

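Other genes near the 3 members past 2-fold were looked at after those values had been seen. Within 500 kb of ABCA3 on chromosome 16, 66 other genes had at least 1 TPM, and 9 of them were past 2-fold upwards and 0 downwards, against 4.82% and 9.61% of all genes tested. Their log2 changes ran from -0.91 to 1.65, with a median of 0.26. Their median GC content was 60.9%, and with the GC trend subtracted their median change was 0.19. ABCA3, at 1.69, was above each of these neighbours with TPM as deposited. Within 500 kb of ABCB1, 12 other genes had at least 1 TPM, with 1 past 2-fold upwards and 1, RUNDC3B, downwards, and a median of -0.19. Within 500 kb of ABCG2 there were 7, with 0 upwards, 2 downwards and a median of -0.26. No cause of these values was tested.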
